A study of Mus with 3 samples.

Results

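Described here are 9 of the 32285 genes counted in cells of MC38 tumors, a mouse colon carcinoma line grown in mice with altered RARα in their T cells. They are Tmem176a, Tmem176b and 7 genes of the type 17 program, namely Rora, Il17a, Il22, Il23r, Il1r1, Ccr6 and Blk. The members were chosen by name, with results from the same cells in view, since Tmem176a and Tmem176b were among the genes with the highest RARα-TG to WT ratio in CD8 T cells. That ratio is therefore given as a description. All 9 had a UMI in T cells, where a UMI is a counted RNA molecule.

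Tumors were taken on day 16 from mice of 3 genotypes, called WT, RARα-KO and RARα-TG, and each genotype contributed 30000 sorted CD45.2+ CD3+ T cells together with 10000 cells of the whole tumor. RARα-KO mice carry dLck-Cre, driven by the distal Lck promoter in T cells, with floxed Rara alleles, and RARα-TG mice carry CD2-Rara, a transgene under the T cell promoter of CD2. Which control strain, C57BL/6 or dLck-Cre, gave the WT tumor and how many mice stood behind each genotype are not given in the sources used here. Cells of the 3 genotypes bore a hashtag antibody each and were run as 1 pooled library, so each genotype is 1 sample, no difference between genotypes has a replicate check and no test was made. Intervals are exact 95% intervals that cover counting error only. The labels also name the spleen and cultured naive CD8 T cells, but the cells with a genotype included CD4 T cells, macrophages, dendritic cells and 420 MC38 or stromal cells, so the tumor protocol of the same labels was followed.

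Of 5585 called cells, 4925 had 1 genotype, and 3957 of these were T cells: 1452 WT, 1720 RARα-KO and 785 RARα-TG. The median T cell held 4430 UMIs in WT and 4922 in RARα-KO, and 3370 in RARα-TG. Cd3e, a chain of the T cell receptor complex, was detected in 89.9% (RARα-TG) to 95.3% (RARα-KO) of T cells by genotype, while Lyz2, a macrophage gene, was detected in at most 1.10% in any genotype. Rara itself stood at 87.4 CPM (81.1 to 94.2) in WT T cells, 80.2 in the RARα-KO and 249.5 in the RARα-TG ones, where CPM is a gene's UMIs per 1000000 UMIs of the cells summed. The RARα-KO line still transcribes Rara without the deleted exon, so its level does not check that label. In 104 clonotypes with 1729 cells, 3 cells carried another hashtag than the rest of their clonotype. The makeup of the T cells differed. CD8 cells, with a Cd8a UMI and no Cd4 UMI, numbered 113 in RARα-TG against 843 in WT and 1180 in RARα-KO. CD4 cells, with a Cd4 UMI and no Cd8a or Cd8b1 UMI, numbered 261, 216 and 245 in the same order. Cells with none of these UMIs are called neither and numbered 333, 283 and 157, and the rest had mixed UMIs.

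Type 17 immunity is the response built around the cytokine IL-17A. It is made by Th17 CD4 T cells, by subsets of γδ T cells and by innate lymphoid cells, in which the factor RORα (gene Rora) takes part in switching on the program and IL-23 and IL-1 sustain it. Retinoic acid, the ligand of RARα, is known to favor regulatory T cells over Th17 cells when naive CD4 T cells are activated. Tmem176a and Tmem176b encode related membrane proteins of intracellular vesicles that are known from dendritic cells and from type 17 lymphocytes.

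Il17a and Ccr6 were in far more T cells of RARα-TG than of WT or RARα-KO, none of them CD8 cells, and most RARα-TG cells with either gene also had Foxp3, the factor of regulatory T cells. Il23r had 7 UMIs or fewer in each genotype, with a ratio of RARα-TG to WT whose interval lay just above no difference. Tmem176a and Tmem176b were also higher in RARα-TG T cells, with the largest ratio in CD8 cells and with intervals that included no difference in CD4 and neither cells. With 20 or more UMIs over both genotypes as the minimum, 6 members could be compared between RARα-TG and WT T cells, and 5 of them (Tmem176a, Tmem176b, Il17a, Il22 and Ccr6) were higher by 2-fold or more, beside 6.37% of all genes compared. That count is a description. Tmem176a and Tmem176b were chosen with their ratio in CD8 cells in view, and 79 of the 82 Il22 UMIs were in 1 cell. Il23r, Il1r1 and Blk were under the minimum. Between RARα-KO and WT, 4 members could be compared and 3 (Tmem176a, Tmem176b and Ccr6) were lower by 2-fold or more, beside 3.40% of all genes. By subset the 3 members compared were Tmem176a, Tmem176b and Rora, since Ccr6 was under the minimum in each. Of these 3, 1 was lower in CD4 cells (Tmem176a, beside 3.12% of all genes). In CD8 cells 0 of 3 were lower (beside 2.89%), and in neither cells 0 of 3 (beside 4.26%). In WT, CD8 cells had less Tmem176a, Tmem176b and Ccr6 than CD4 and neither cells. They were 1180 of 1720 T cells in RARα-KO against 843 of 1452 in WT. Without a Foxp3 UMI, CD4 and neither cells had RARα-KO to WT log2 ratios of -1.98 (Tmem176a), -1.305 (Tmem176b) and -2.36 (Ccr6). The part of makeup in the RARα-KO ratios was not tested.

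T cell receptors shared by several Il17a or Ccr6 cells of RARα-TG are printed because they show how many separate T cells gave rise to these cells. Of the 47 RARα-TG T cells with Il17a, 36 had a clonotype, and they spread over 32 clonotypes, 3 of which held more than 1 such cell. Clonotype 29 had 3 Il17a cells among 18, clonotype 165 had 2 among 3 and clonotype 305 had 2 of 2, and 13, 3 and 2 cells of these clonotypes had Foxp3. Clonotypes 160 and 296, also RARα-TG, had Ccr6 and Foxp3 in 3 of 3 and 2 of 2 cells. The CDR3, the part of a chain that contacts antigen, is printed from the deposited contigs, in lower case throughout, with the V and J gene of each chain.
Clonotype 29, TRA (TRAV6N-7, TRAJ32): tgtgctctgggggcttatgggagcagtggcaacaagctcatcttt
Clonotype 29, TRB (TRBV20, TRBJ1-3): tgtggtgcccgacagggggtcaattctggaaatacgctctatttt
Clonotype 165, TRA (TRAV13D-4, TRAJ4): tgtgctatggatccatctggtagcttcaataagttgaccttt
Clonotype 165, TRB (TRBV1, TRBJ2-4): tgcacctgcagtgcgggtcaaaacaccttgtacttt
Clonotype 305, TRA (TRAV13D-2, TRAJ15): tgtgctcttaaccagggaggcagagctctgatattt
Clonotype 305, TRB (TRBV19, TRBJ1-2): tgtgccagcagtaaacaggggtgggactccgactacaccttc
Clonotype 160, TRA (TRAV7-4, TRAJ22): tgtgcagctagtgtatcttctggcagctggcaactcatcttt
Clonotype 160, TRB (TRBV31, TRBJ2-3): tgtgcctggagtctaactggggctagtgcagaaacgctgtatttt
Clonotype 296, TRA (TRAV7-4, TRAJ37): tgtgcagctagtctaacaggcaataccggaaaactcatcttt
Clonotype 296, TRB (TRBV19, TRBJ2-4): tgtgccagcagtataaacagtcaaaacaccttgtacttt

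These 5 clonotypes used 4 different Vα genes and 4 different Vβ genes, since clonotypes 160 and 296 shared TRAV7-4 and clonotypes 305 and 296 shared TRBV19, with different J genes and CDR3s. The semi-invariant chain TRAV1 with TRAJ33, which marks MAIT cells, was found in 0 T cells. The invariant chain TRAV11 with TRAJ18, which marks NKT cells, was found in 2 WT and 3 RARα-TG T cells, none of them with Il17a, Il23r, Ccr6, Tmem176a or Tmem176b. Among the RARα-TG T cells with a clonotype, 15 of the 36 Il17a cells (41.7%, 25.5 to 59.2) were the one cell of their clonotype, as were 429 of the 619 others (69.3%, 65.5 to 72.9). Cells of 1 clonotype descend from 1 cell and are not independent of each other.

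Il17a (chr1:20730905-20734496 in GRCm38, as the RefSeq table gives the gene) encodes the lead cytokine of the program. It had 200 UMIs in 47 of 785 RARα-TG T cells (5.99%, 4.43 to 7.88), 3 UMIs in 1 of 1452 WT T cells and 2 UMIs in 1 of 1720 RARα-KO T cells. The RARα-TG level was 62.5 CPM (54.1 to 71.8) against 0.376 (0.0776 to 1.10) in WT, a log2 ratio of 7.38 (5.81 to 9.66). The WT cell had Foxp3, and the RARα-KO cell had UMIs of γδ chains. Thinned to 1000 UMIs per cell, 23 of 771 RARα-TG T cells (2.98%, 1.90 to 4.44), 1 of 1426 WT and 1 of 1705 RARα-KO cells kept an Il17a UMI. As a check of free RNA, Il17a was at 0 in 238 macrophages, 101 dendritic cells, 57 neutrophils and 420 MC38 or stromal cells. The last had a median of 29383 UMIs, and 0 of 420 cells allows a share of up to 0.714%, taking 3 cells as the limit.

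**Figure D1:**
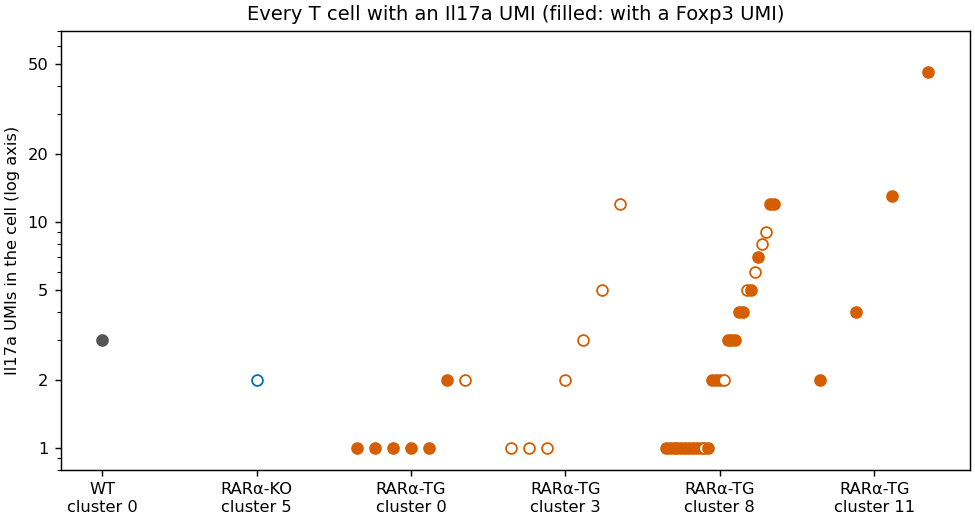
Each point is 1 T cell with an Il17a UMI, placed by genotype and cluster, with its Il17a UMIs on a log axis; filled points also had a Foxp3 UMI. The 47 RARα-TG cells span 1 to 46 UMIs and lie in clusters 0, 3, 8 and 11, and WT and RARα-KO have 1 cell each.

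The RARα-TG cells with Il17a were 22 CD4, 21 neither and 4 mixed cells, and 0 of 47 had a Cd8a UMI. By the definition of the groups, the 4 mixed cells therefore had Cd8b1 UMIs. In CD4 cells Il17a was found in 22 of 261 RARα-TG cells (53.1 CPM, 40.9 to 67.8) and in none of 216 WT or 245 RARα-KO cells. The RARα-TG level there was 18.4-fold the WT floor of 3 UMIs, without the counting error of the RARα-TG UMIs. In neither cells it was found in 21 of 333 RARα-TG cells (120.5 CPM, 100.6 to 143.2), 1 of 283 WT cells (3.49 CPM, 0.720 to 10.2) and 1 of 157 RARα-KO cells (3.96 CPM, 0.479 to 14.3). No CD8 cell of any genotype had it.
In CD4 cells 2 of 5 members compared (Il17a and Ccr6) were higher by 2-fold or more in RARα-TG, beside 3.26% of all genes, and in neither cells 1 of 5 (Il17a), beside 3.61%.

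The UMIs were uneven between cells: 20 of the 47 cells had 1 UMI, 15 had 2 to 4 and 12 had 5 or more, and 1 cell of cluster 11, the cluster of dividing cells led by Pclaf and Mki67, held 46 of the 200. Without the cell with the most UMIs in each genotype, WT was left at 0. The RARα-TG level then exceeded the floor by a log2 ratio of 7.003, without the counting error of the RARα-TG UMIs. Cluster 8, led by Laptm4b, Pcsk1 and Ramp1 with Klrg1 among its top 10, held 29 of the 47 cells and 101 of the 200 UMIs, and 269 of its 281 T cells were RARα-TG. Cluster 8 and the genotype can hardly be told apart, and without that cluster the log2 ratio of Il17a was 6.95 (5.36 to 9.25). In cluster 3, led by Tnfsf8, Ramp3 and Tnfsf11, which all 3 genotypes fill, Il17a was found in 7 of 123 RARα-TG cells and in none of 129 WT or 187 RARα-KO cells.

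Foxp3 was detected in 33 of the 47 Il17a cells of RARα-TG (70.2%, 55.1 to 82.7) and in 315 of the other 738 RARα-TG T cells (42.7%, 39.1 to 46.3). Il2ra, the high-affinity IL-2 receptor chain that regulatory and activated T cells carry, was in 91.5% of the Il17a cells and 58.0% of the others. The Il17a cells thus had both of these genes more often than the other RARα-TG T cells, which included 113 CD8 cells. Within CD4 cells alone the Foxp3 shares were 68.2% (45.1 to 86.1) and 56.5% (49.9 to 62.9), with overlapping intervals.

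Foxp3 was in 348 of 785 RARα-TG and 247 of 1452 WT T cells, so the genotypes were also compared among Foxp3 cells. Among T cells with a Foxp3 UMI, Il17a was found in 33 of 348 RARα-TG cells (94.0 CPM) and 1 of 247 WT cells (2.59 CPM), and in none of 140 RARα-KO cells, a log2 ratio of RARα-TG to WT of 5.18 (3.60 to 7.47). Outside cluster 8 that ratio was 5.43 (3.82 to 7.74), but 65 of the 72 RARα-TG UMIs behind it were in 4 dividing cells of cluster 11, 46 of them in 1 cell. Without clusters 8 and 11 the ratio was 2.35 (0.22 to 4.94), from 7 UMIs in 6 of 138 RARα-TG cells against 3 UMIs in 1 of 238 WT cells. In cluster 0, which all 3 genotypes fill, it was 2.57 (0.56 to 5.09), from 9 against 3 UMIs. Among CD4 and neither cells without a Foxp3 UMI, Il17a was found in 13 of 282 RARα-TG cells with 56 UMIs, in none of 281 WT cells and in 1 of 280 RARα-KO cells. That RARα-TG level was 18.3-fold the WT floor, and the interval of the log2 ratio started at 3.85. The difference was thus present among cells with a Foxp3 UMI and among cells without one. A cell without a Foxp3 UMI may still have had Foxp3 RNA, since Foxp3 UMIs per cell were few. Outside clusters 8 and 11 the difference among Foxp3 cells rested on the 7 against 3 UMIs above.

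Il22 (chr10:118204584-118210047) encodes the type 17 cytokine that acts on epithelia. It had 82 UMIs in 2 RARα-TG T cells and none in the T cells of WT or RARα-KO. A single cell of cluster 8 with 7667 UMIs in all, 5 of them Foxp3, held 79 of the 82, and it had no Il17a. The other cell, of cluster 3, had 3 Il22 and 2 Il17a UMIs with 1 UMI each of Tmem176a and Tmem176b. Without the first cell RARα-TG stood at the floor of 3 UMIs, so the Il22 ratio rests on 1 cell.

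Ccr6 (chr17:8236041-8258519) encodes the chemokine receptor that draws Th17 cells and some regulatory T cells toward CCL20. Its 57 UMIs in 31 RARα-TG T cells gave 17.8 CPM (13.5 to 23.1), 18 UMIs in 12 WT cells gave 2.26 (1.34 to 3.57) and 6 UMIs in 4 RARα-KO cells gave 0.570 (0.209 to 1.24). RARα-TG was higher than WT by a log2 ratio of 2.98 (2.19 to 3.83), and RARα-KO was lower, with a log2 ratio of -1.99 (-3.61 to -0.59). The intervals of the levels did not overlap. In CD4 cells the RARα-KO to WT ratio was -0.877 (-2.875 to 0.995), from 5 against 7 UMIs. Among CD4 and neither cells without a Foxp3 UMI it was -2.36 (-4.82 to -0.47), from 3 against 12 UMIs. RARα-KO also had the larger share of CD8 cells, 1180 of 1720 T cells against 843 of 1452 in WT. The part of that share in the RARα-KO ratio was not tested. By subset the ratio of RARα-TG to WT was 2.07 (0.87 to 3.48) in CD4 cells and 0.45 (-0.76 to 1.74) in neither cells, and CD8 cells had no Ccr6 UMI in any genotype. Of the 34 Ccr6 UMIs of RARα-TG CD4 cells, 14 were in 1 cell, and the 7 of WT were in 2 cells. Without that RARα-TG cell the CD4 ratio was 1.31 (0.01 to 2.80), and without the highest cell of each genotype it was 2.53 (0.77 to 4.92), from 20 against 3 UMIs.

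Most Ccr6 cells of RARα-TG also had Foxp3. Of the 31 Ccr6 cells of RARα-TG, 25 had Foxp3 (80.7%, 62.5 to 92.6), against 42.8% of the other RARα-TG T cells, and within CD4 cells the shares were 73.3% (44.9 to 92.2) and 56.5%. Within T cells with Foxp3, Ccr6 was found in 25 of 348 RARα-TG and 5 of 247 WT cells, and the log2 ratio of RARα-TG to WT was 2.28 (1.02 to 3.81). Among CD4 and neither cells without Foxp3 the ratio was 0.56, with an interval from -0.58 to 1.74 that includes 0. The intervals of both ratios overlap, and their difference was not tested. Ccr6 was detected in 4 of the 47 RARα-TG cells with Il17a (8.51%, 2.37 to 20.4) and in 27 of the other 738 (3.66%, 2.43 to 5.28). These intervals overlap, and with few UMIs of either gene per cell the number of cells with both is a lower limit.

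Il23r (chr6:67422932-67491855) and Il1r1 (chr1:40222480-40316201) encode the receptors through which IL-23 and IL-1 sustain type 17 cells. Il23r stood at 2.19 CPM (0.879 to 4.50) in RARα-TG, from 7 UMIs in 6 T cells, at 0.502 (0.137 to 1.28) in WT from 4 UMIs in 4 cells and at 0.665 (0.267 to 1.37) in RARα-KO from 7 UMIs in 4 cells. The log2 ratio of RARα-TG to WT was 2.12 (0.15 to 4.34) and that of RARα-TG to RARα-KO 1.72 (-0.02 to 3.46), while RARα-KO against WT was 0.41 (-1.57 to 2.63). Among cells with a clonotype the first of these was 1.98 (-0.10 to 4.25), from 6 against 4 UMIs. Il1r1 had 16 UMIs in 15 RARα-TG T cells, 8 of them CD4 and 6 neither, against 1 UMI in WT and none in RARα-KO. Rora was in all 15 of these RARα-TG cells. The log2 ratio of Il1r1 to WT was 5.32 (2.63 to 10.7), from a WT count of 1. Other cells held most Il1r1 in the tumor, as 74 of 420 MC38 or stromal cells had it with 93 UMIs (7.01 CPM). MC38 or stromal genes were also higher in RARα-TG T cells, where their summed level was 41.2 CPM with 5 of 8 genes detected and Krt8, Krt19 and Pdgfrb at 0, against 13.2 (WT) and 9.59 (RARα-KO). Their part in the Il1r1 UMIs was not tested, and Il1r1 was at 0 in CD8 cells of RARα-TG.

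Blk (chr14:63372837-63417187) encodes a Src-family kinase of B cells that IL-17-producing γδ T cells also carry. It had 6 UMIs in 4 T cells, 1 of them WT, 1 RARα-KO and 2 RARα-TG, too few for a ratio, and was also in 3 of 8 B cells and 3 of 101 dendritic cells. The WT and the RARα-KO cell had no clonotype and no Trac UMI, and both had UMIs of the γδ chain genes Tcrg-V6 and Trdv4. The RARα-KO cell had 30 Trdv4 UMIs, 2 Tcrg-V6 UMIs and UMIs of 6 members, namely Tmem176a, Tmem176b, Rora, Il17a (2 UMIs), Il23r and Blk. The WT cell had 10 Trdv4, 1 Tcrg-V6 and 8 Cd163l1 UMIs (a scavenger receptor of γδ T cells), 3 Blk UMIs and 1 each of Tmem176a and Tmem176b. In all, 13 T cells without a clonotype had 2 or more UMIs of the γδ chains, 2 RARα-KO, 2 RARα-TG and 9 WT, and Tmem176a and Tmem176b were in 4 of the 13 cells each. Most of the 13 cells also had UMIs of the constant genes of the β chain. By comparison Tmem176b was in 3.02% of the other T cells without a clonotype.

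Rora (chr9:68653404-69388246), the broadest member, was found in 2520 of the 3957 T cells, against 25 of 238 macrophages and 17 of 420 MC38 or stromal cells. Its level in all T cells was 520.0 CPM (495.3 to 545.6) for RARα-TG, 329.2 (316.7 to 342.0) for WT and 246.2 (236.9 to 255.9) for RARα-KO. By subset the order differed. In CD4 cells it was 602.8, 496.4 and 450.3 CPM in the same order, and in neither cells 639.1, 501.8 and 498.3. In CD8 cells it was 122.8 CPM (96.4 to 154.2) for RARα-TG, 265.2 (251.9 to 279.0) for WT and 189.6 (180.2 to 199.3) for RARα-KO, so that RARα-TG stood lowest, with a log2 ratio to WT of -1.11 (-1.47 to -0.77). The CD8 cells of the genotypes lay in different clusters. In RARα-TG 59 and 27 of 113 were in clusters 4 and 10, and in WT 292 and 153 of 843 were in clusters 6 and 2, with 103 and 58 in clusters 4 and 10. Within cluster 4 the Rora level was 145.9 CPM (103.7 to 199.4) in RARα-TG and 489.3 (420.6 to 566.0) in WT, a log2 ratio of -1.75 (-2.28 to -1.24), and within cluster 10 it was 58.4 against 81.97 CPM, with a ratio of -0.49 (-1.69 to 0.63). Rora was the 1 member of 3 compared that was lower by 2-fold or more in RARα-TG CD8 cells, beside 5.59% of all genes. WT and RARα-KO did not separate in neither cells. In every genotype CD4 cells had more Rora than CD8 cells, by a log2 ratio between 0.90 (WT) and 2.30 (RARα-TG), and RARα-TG had the smallest share of CD8 cells. The part of that share in the levels over all T cells was not tested.

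**Figure D2:**
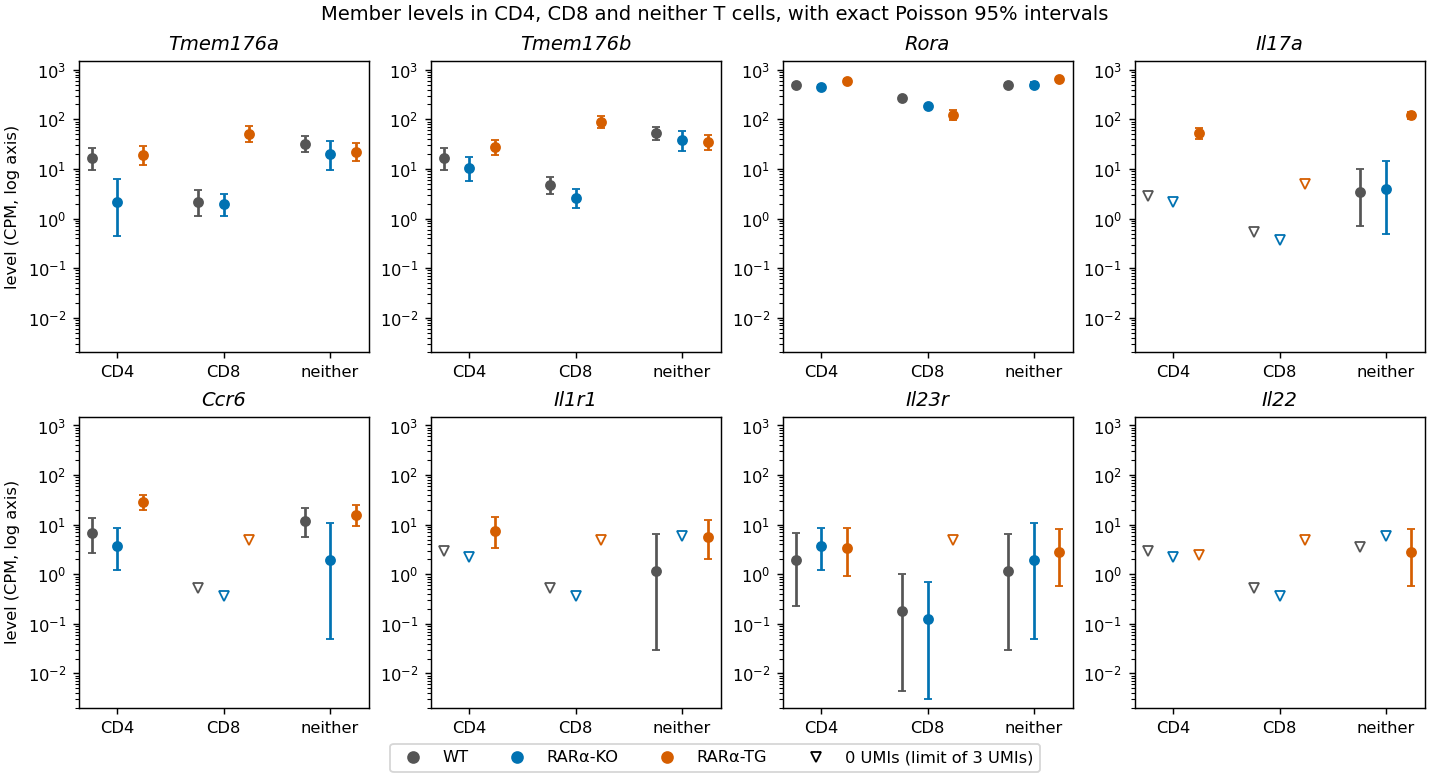
Levels of 8 members in CPM on a log axis for CD4, CD8 and neither T cells of WT, RARα-KO and RARα-TG, with exact Poisson 95% intervals; open triangles mark 0 UMIs, drawn at the limit of 3 UMIs. Il17a and Ccr6 have open triangles in CD8 cells of every genotype, while for Tmem176a and Tmem176b the genotypes separate most in CD8 cells, with RARα-TG at 51.4 and 87.9 CPM.

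Tmem176a (chr6:48841483-48845364) and Tmem176b (chr6:48833811-48845948) overlap by position over 3882 bases, the whole of Tmem176a. Strands were not compared, and whether the overlap affected the assignment of reads was not tested. Across the T cells Tmem176a was at 25.9 CPM (20.6 to 32.1) in RARα-TG, from 83 UMIs in 55 cells, at 8.03 (6.18 to 10.2) in WT, from 64 UMIs in 43 cells, and at 3.04 (2.08 to 4.29) in RARα-KO, from 32 UMIs in 18 cells. Tmem176b was at 41.2 (34.5 to 48.9), 12.3 (9.98 to 14.98) and 5.51 (4.18 to 7.12) CPM in the same order. Intervals of neighbouring genotypes did not overlap for either gene. The log2 ratios of RARα-TG to WT were 1.69 (1.20 to 2.18) and 1.75 (1.36 to 2.14), and those of RARα-KO to WT were -1.40 (-2.06 to -0.77) and -1.16 (-1.65 to -0.68).

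This order was not found in every subset. In CD8 cells Tmem176a had 31 UMIs in RARα-TG (51.4 CPM, 34.9 to 73.0), 12 in WT (2.14 CPM, 1.10 to 3.73) and 16 in RARα-KO (1.97 CPM, 1.13 to 3.20). Tmem176b had 53 (87.9 CPM, 65.9 to 115.0), 27 (4.81 CPM, 3.17 to 6.997) and 21 (2.59 CPM, 1.60 to 3.96). The log2 ratios of RARα-TG to WT were 4.59 (3.59 to 5.69) and 4.19 (3.50 to 4.92), in the contrast that chose these genes, and 2 of 3 members were higher by 2-fold or more in RARα-TG CD8 cells, beside 5.69% of all genes, a count the choice of members fixed. The WT and RARα-KO levels in CD8 cells were at or below those of MC38 or stromal cells, at 2.56 CPM for Tmem176a and 10.5 for Tmem176b. What part of them was free RNA was not tested, and Tmem176b reached 5 UMIs in 1 WT CD8 cell. Between RARα-KO and WT CD8 cells the log2 ratio was -0.12 (-1.29 to 1.10) for Tmem176a and -0.89 (-1.79 to -0.02) for Tmem176b.

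In CD4 and neither cells the intervals of the ratio of RARα-TG to WT included 0. For Tmem176a the log2 ratio was 0.22 (-0.75 to 1.22) in CD4 and -0.54 (-1.39 to 0.30) in neither cells, and for Tmem176b it was 0.74 (-0.14 to 1.68) and -0.63 (-1.30 to 0.02). Among T cells with Foxp3 the same ratios were 0.48 (-0.65 to 1.69) and 0.57 (-0.35 to 1.54). RARα-KO CD4 cells had 3 Tmem176a UMIs against 17 in WT (log2 ratio -2.89, -5.31 to -1.10), and Tmem176a was the 1 of 3 members compared that was lower by 2-fold or more there, beside 3.12% of all genes. Tmem176b in the same cells had 14 and 17 UMIs, with an interval of the ratio that includes 0.

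**Figure D3:**
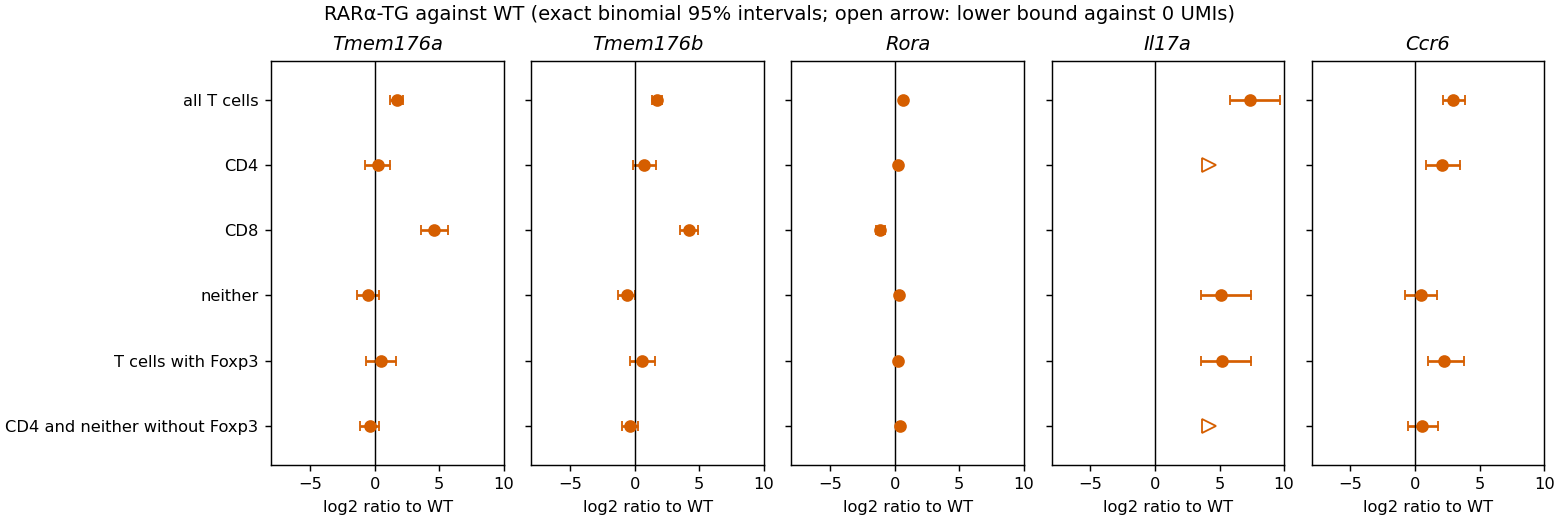
Log2 ratios of RARα-TG to WT for 5 members in all T cells and in 5 subsets, with exact binomial 95% intervals; open arrows are lower bounds where WT had 0 UMIs. Tmem176a and Tmem176b lie at 4.59 and 4.19 in CD8 cells and between -0.63 and 0.74 in the other 4 subsets, Il17a is above 0 wherever it was measured, and Rora is below 0 in CD8 cells and above 0 in the other rows.

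A Tmem176a or Tmem176b UMI was present in 22 of 113 RARα-TG CD8 cells (19.5%, 12.6 to 28.0), 19 of 843 WT (2.25%, 1.36 to 3.50) and 16 of 1180 RARα-KO CD8 cells. Of the 22, 9 were among 59 CD8 cells of cluster 4, led by Cd7, Gzma, S1pr1 and Tcf7, and 9 among 27 of cluster 10, led by Klra7, where WT had 2 of 103 and 0 of 58. Within cluster 4 the log2 ratios of RARα-TG to WT were 2.64 (0.37 to 5.89) for Tmem176a and 2.79 (0.97 to 5.22) for Tmem176b, from WT counts of 2 and 3 UMIs. Tcf7, the factor of memory-like T cells, was in 14 of the 22 (63.6%, 40.7 to 82.8) and in 37 of the 91 other RARα-TG CD8 cells (40.7%, 30.5 to 51.5). These intervals overlap. Lyz2 was in 0 of the 22 and in 1 of the 91 others, and in 2 of the 19 such WT cells against 5 of 824 other WT CD8 cells. Tyrobp, an adaptor of myeloid and NK cells, was in 5 of 22 against 3 of 91. Thinned to 1000 UMIs, Tmem176b was kept in 12 of 111 RARα-TG CD8 cells (10.8%, 5.71 to 18.1), 5 of 842 WT and 2 of 1178 RARα-KO cells.

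Among the 5 cell types compared, dendritic cells had the highest levels of both genes. Over the genotypes Tmem176a was at 164.3 CPM (138.0 to 194.1) in 101 dendritic cells, 14.9 (9.76 to 21.9) in 238 macrophages, 8.25 (7.08 to 9.55) in T cells and 2.56 in MC38 or stromal cells, and Tmem176b at 219.0, 28.7, 13.3 and 10.5. In cluster 16, whose cells had Fscn1 and Ccl22 of activated dendritic cells, the levels were 259.8 (217.4 to 308.1) and 322.8 (275.3 to 376.1) CPM, and in cluster 17, where 49 of 49 cells had Siglech of plasmacytoid dendritic cells, they were 18.1 (6.63 to 39.3) and 60.2 (36.8 to 93.0). Dendritic marker genes in the T cells summed to 25.9 CPM in RARα-TG, 36.6 in WT and 20.6 in RARα-KO, with 5, 7 and 6 of 9 genes detected and Clec9a at 0 in all 3 genotypes. Macrophage markers summed to 15.6, 20.4 and 22.0 CPM, with 6, 8 and 9 of 9 detected. In CD8 cells alone the dendritic markers summed to 44.8 CPM (29.5 to 65.2) in RARα-TG, 29.4 (25.1 to 34.2) in WT and 19.8 (16.9 to 23.2) in RARα-KO. The 27 UMIs of RARα-TG were 16 of Itgax, 10 of Zbtb46 and 1 of Fscn1, with the other 6 genes at 0. The RARα-TG CD8 cells with a Tmem176 gene had 12 of these UMIs in 7 of 22 cells (75.3 CPM, 38.9 to 131.5), and the others had 15 in 9 of 91 cells (33.8 CPM, 18.9 to 55.8). Macrophage markers in CD8 cells summed to 19.9, 19.6 and 23.4 CPM. All 9 were at 0 in the 22 cells (up to 23.1 CPM), beside 27.1 (14.0 to 47.3) in the 91 others. The 19 WT CD8 cells with a Tmem176 gene had 20 macrophage marker UMIs in 4 cells (124.3 CPM, 75.9 to 192). The other WT CD8 cells stood at 16.5 CPM (13.3 to 20.3). The 16 such RARα-KO cells had 2 of these UMIs in 1 cell. The part of dendritic or macrophage RNA in the Tmem176 levels was not tested.

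**Figure D4:**
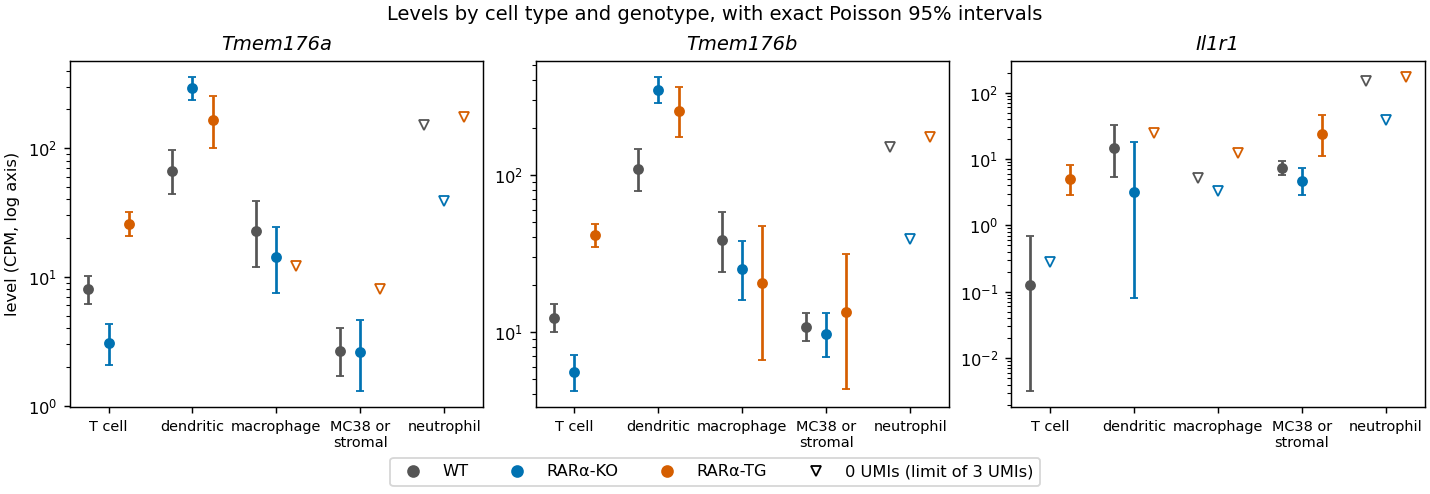
Levels of Tmem176a, Tmem176b and Il1r1 in CPM on a log axis by cell type and genotype, with exact Poisson 95% intervals; open triangles mark 0 UMIs, drawn at the limit of 3 UMIs. Dendritic cells lie above T cells, macrophages and MC38 or stromal cells for Tmem176a and Tmem176b in every genotype. The 57 neutrophils, with a median of 1939 UMIs, have 0 UMIs of all 3 genes and limits too wide to rank them in each genotype.

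The genotypes also differed within dendritic cells. Tmem176a was at 66.4 CPM (43.8 to 96.6) in 48 WT cells, 164.7 (100.6 to 254.4) in 17 RARα-TG cells and 291.6 (234.7 to 358.0) in 36 RARα-KO cells, and Tmem176b at 108.2, 255.3 and 349.2. WT was lowest for both genes, and the log2 ratio of RARα-TG to RARα-KO was -0.82 (-1.60 to -0.11) for Tmem176a and -0.45 (-1.08 to 0.14) for Tmem176b. Cluster 16 held 21 of the 48 WT, 27 of the 36 RARα-KO and 4 of the 17 RARα-TG dendritic cells, and 2 of the last 4 had 16 of the 20 Tmem176a UMIs behind the RARα-TG level. Within cluster 16 the Tmem176a level was 365.7 CPM (294.4 to 449.0) in 27 RARα-KO cells and 110.9 (71.8 to 163.8) in 21 WT cells. In macrophages the Tmem176a level was 22.6 CPM (12.01 to 38.6) for WT and 14.2 (7.54 to 24.2) for RARα-KO, with overlapping intervals, and 35 RARα-TG macrophages had no UMI of it. The other members were sparse in myeloid cells, with Il23r in 2 and Il1r1 in 6 of 101 dendritic cells and neither in macrophages.

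A clonotype was present in 655 of 785 RARα-TG T cells, 1290 of 1452 WT and 1436 of 1720 RARα-KO T cells. Cells with a clonotype had a median of 3593 UMIs against 2243 without one in RARα-TG, 4704 against 2788 in WT and 4860 against 5988 in RARα-KO. In WT both Tmem176 genes were higher in cells without a clonotype, at 20.9 against 7.03 CPM for Tmem176a and 61.0 against 8.52 for Tmem176b, with log2 ratios of cells with to cells without of -1.57 (-2.50 to -0.53) and -2.84 (-3.46 to -2.20). Of the 35 Tmem176b UMIs behind the WT level without a clonotype, 14, 8 and 1 were in 3 of the 9 WT cells with γδ chains. The cells with 14 and 8 had 4 and 3 Trdv4 UMIs and no Trdc or Trac UMI. Each also had 6 UMIs of the constant genes of the β chain. In RARα-TG the same ratios were -0.55 (-1.40 to 0.39) and -1.09 (-1.69 to -0.45), so that Tmem176b was again higher without a clonotype. In RARα-KO they were 0.08 and 0.06, with intervals that include 0. Cells without a clonotype differed in makeup, as 209 of 284 were CD8 cells in RARα-KO, 53 of 162 in WT and 19 of 130 in RARα-TG. The part of this makeup in the ratios was not tested. Il17a in RARα-TG was at 56.5 CPM with and 105.4 without a clonotype. All 81 Ccr6 UMIs of T cells were in cells with a clonotype, and 57 of them were RARα-TG.

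Among cells with a clonotype, RARα-TG exceeded WT by a log2 ratio of 1.80 (Tmem176a), 2.09 (Tmem176b), 7.12 (Il17a) and 3.06 (Ccr6). Among cells without one, the Tmem176a and Tmem176b ratios were 0.78 and 0.34 with intervals that include 0, and Il17a had 41 UMIs in RARα-TG against 0 in 162 WT cells. The RARα-KO to WT ratios of Tmem176a and Tmem176b were -1.19 and -0.62 with a clonotype and -2.85 and -3.52 without one, so that Tmem176b passed 2-fold only among the latter.

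Few T cells had several members at once. UMIs of 3 or more members were found in 40 of 785 RARα-TG T cells (5.10%, 3.66 to 6.87), 23 of 1452 WT (1.58%, 1.01 to 2.37) and 11 of 1720 RARα-KO T cells (0.640%, 0.320 to 1.14). Thinned to 1000 UMIs these shares were 0.389%, 0.281% and 0.176% in the same order, with overlapping intervals, while the shares with 2 or more members were 5.19% (3.73 to 6.998), 1.05% (0.590 to 1.73) and 0.411%, and RARα-TG stood apart. A count of members is a range, not a cell type. It is a description, since it includes Tmem176a and Tmem176b, chosen with their RARα-TG ratio in CD8 cells in view. Rora, found in 2520 of the 3957 T cells, is also among the members counted. By subset 17 of 261 CD4, 5 of 113 CD8 and 13 of 333 neither cells of RARα-TG had 3 or more.

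Tmem176a and Tmem176b were detected together: of 116 T cells with Tmem176a, 71 had Tmem176b (61.2%, 51.7 to 70.1), against 72 of 3841 without it (1.88%). Of the 47 Ccr6 cells of all genotypes 11 had Tmem176a (23.4%, 12.3 to 38.0), against 105 of 3910 others (2.69%), and 6 of these 11 were among the 12 Ccr6 cells of WT. Il17a cells had Tmem176a in 4 of 47 in RARα-TG, near the 6.91% of the other RARα-TG T cells. Of 90 RARα-TG T cells with either Tmem176 gene, 30 had Foxp3.

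**Figure D5:**
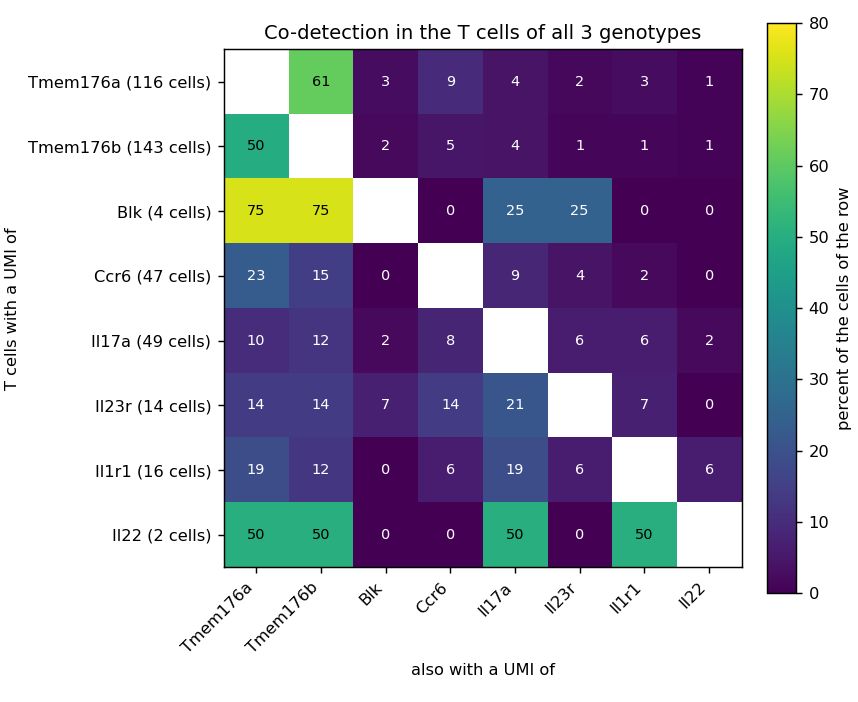
For T cells of all 3 genotypes with a UMI of the member on the row, the square gives the percent that also had a UMI of the member in the column; Rora is left out. Tmem176a and Tmem176b share the most cells, at 61 and 50 percent of each other's, and the rows of Blk and Il22 rest on 4 and 2 cells.

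By correlation of log-normalised UMIs over 3957 T cells and 11175 genes, which share library and depth, the gene most like Tmem176b was Tmem176a (Pearson's r = 0.584). Next were Cd163l1 (0.154), Nebl (0.152), Actn2, Krt83, Kcnip2, Cyp4f16, Ramp3, Plcb4 and Ropn1l, all below 0.13 from Actn2 on. Blk was most like Cd163l1 (0.416), Sult4a1 (0.321) and Trdc (0.251), followed by Zmat1 and H2-Aa. Il17a was most like Vax2 (0.223), Slc15a3 (0.190), Laptm4b (0.188), Mmp25 and 1700012B07Rik, and Il23r most like Il17a (0.169), Mafa, Sfxn4, Klhl8 and Hus1. Apart from the Tmem176 pair and Blk, all were weak correlations in sparse counts and carry no finding.

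Other genes of the program were counted by role in T cells. Of 8 ligands and antagonists 3 could be compared between RARα-TG and WT, and Il1rn, the IL-1 receptor antagonist, was higher (78.1 against 6.65 CPM, log2 ratio 3.55) while it was the 1 of 4 lower in RARα-KO (2.94 CPM). Of 10 receptors 9 could be compared, with Il6ra (log2 ratio 1.57), the IL-6 receptor, and Ccr2 (1.60), a chemokine receptor, higher in RARα-TG, and Il6ra lower in RARα-KO (-1.05). The medians of these lists in RARα-TG were 0.88 and 0.46, beside 0.06 over all genes compared. Of all genes compared, 6.37% were higher by 2-fold or more in RARα-TG, and 3.40% were lower by as much in RARα-KO.

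Among the transcription factors Maf, a factor of Th17 and regulatory T cells, stood at 382.0 CPM in RARα-TG, 103.1 in WT and 64.7 in RARα-KO, and 0 of 5 factors compared passed 2-fold in RARα-KO. Ahr, Stat3, Irf4 and Batf were within 2-fold in RARα-TG. The effector Il17f, the closest relative of Il17a, had 4 UMIs in WT and none in the other genotypes. Areg, a growth factor of tissue-repair cells, was the 1 of 2 effectors compared that was higher in RARα-TG (914.8 against 219.0 CPM), beside 6.37% of all genes. Of 3 effectors compared in RARα-KO, Areg (65.3 CPM) and the cytokine gene Csf2 (8.83 against 39.6 CPM) were lower and the cytokine gene Il21 (2.66 against 0.502 CPM) was higher. The median of the effectors in RARα-TG was 0.60.

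Markers of other T cell types moved with the genotypes. Of 4 regulatory T cell genes 3 (Foxp3, Il2ra and Ctla4) were higher by 2-fold or more in RARα-TG T cells, beside 6.37% of all genes. Foxp3 was at 285.5 CPM against 92.0 in WT and 43.6 in RARα-KO, where Foxp3 and Ikzf2 were lower, beside 3.40%. Of 9 γδ genes 6 could be compared and 4 (Trdc, Tcrg-C4, Cd163l1 and 5830411N06Rik) were higher in RARα-TG, beside the same 6.37%. The γδ list summed to 50.6 CPM against 15.3 in WT and 6.55 in RARα-KO. Of the 162 RARα-TG UMIs of the list, 130 were in cells with an αβ clonotype, 59 of them of 5830411N06Rik. Among cells without a clonotype the list summed to 82.3 CPM (56.3 to 116.1) in RARα-TG and 97.6 (73.7 to 126.7) in WT, and 2 RARα-TG against 9 WT cells had γδ chains. In CD8 cells it summed to 112.8 CPM in RARα-TG, 9.62 in WT and 3.57 in RARα-KO, and within those of RARα-TG to 106.6 in the 22 cells with a Tmem176 gene and 115.1 in the 91 others. B cell markers summed to 40.3, 19.3 and 8.36 CPM, NK cell markers to 18.1, 116.2 and 81.8, and neutrophil markers had at most 2 UMIs, in the order RARα-TG, WT, RARα-KO. Within CD4 cells alone Foxp3 did not exceed WT in RARα-TG, at 342.5 against 371.3 CPM, while Il17a and Ccr6 did. The part of these markers in the other results was not tested.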

How the data were processed

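RNA of tumor cells, T cell receptors and hashtags were measured in 1 pooled library each. The authors aligned reads to mm10 (GRCm38) with Cell Ranger, version 6.1.0 per the labels although the matrix header names another major version, and deposited raw UMI counts for 730308 barcodes with 46394322 gene UMIs, and UMI counts of receptor contigs. Cells were called anew by the 2 steps of Cell Ranger (3000 expected cells, then barcodes with 500 or more UMIs tested against ambient RNA at a false discovery rate of 0.01), since all barcodes were deposited. The called cells held 96.4% of the gene UMIs. Genotypes came from HTODemux (Seurat 5.3.0, R 4.3.3, quantile 0.99), which left out 426 hashtag doublets and 234 cells without a hashtag. Doublets within a genotype were not called and remain.

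Cells were clustered with scanpy 1.11.5 (Leiden, resolution 1, 30 principal components) in Python 3.11.15. T cell clusters were those with a clonotype, or 2 or more Cd3 UMIs, in over 50% of cells, and the other types needed 3 markers detected in 25% of cells. The deposited counts were summed per genotype and cell group, and CPM was computed from the sums, with exact Poisson, Clopper-Pearson and conditional binomial 95% intervals (scipy 1.17.1). Against 0 UMIs a ratio used a floor of 3 UMIs per genotype, and 3 UMIs or fewer in both gave no ratio. A gene was called past 2-fold with 20 or more UMIs over both genotypes. The calling, hashtag and ratio steps were tested on simulated data. The members, gene lists and alternatives were chosen with earlier results of these data known. The text names the 9 members, listed genes past 2-fold in T cells, and the 10 genes most like Tmem176b and 5 most like Il17a, Il23r and Blk. Other genes, among them Tcf7, Tyrobp, Lyz2, Il17f and cluster leaders, were named after their values were seen. Results of 1 further listed gene are not reported here. Gene positions are from a RefSeq table of GRCm38. All cells share 1 gene expression library, so no barcodes are shared between libraries.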

Additional observations from a re-analysis of the deposited data

Results flagged for a closer look

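Called cells without a genotype, hashtag doublets and cells without a hashtag, were used in no comparison but held UMIs of 8 members: 72 of Tmem176a, 104 of Tmem176b, 879 of Rora, 13 of Il17a, 5 of Il23r, 23 of Il1r1, 4 of Ccr6 and 2 of Blk, the last below the limit of 3 UMIs. All 13 Il17a UMIs were in 7 hashtag doublets.

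The RARα-TG to WT log2 ratio of Rora was positive in CD4 cells (0.28) and neither cells (0.35) and negative in CD8 cells (-1.11). The intervals of the first pair do not overlap that of CD8 cells. With 1 sample per genotype the difference between the ratios was not tested.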

How the results depend on the processing

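Of 198 genotype ratios recomputed under the alternatives, 185 kept their sign and 174 stayed within the interval first given, as did 198 of 243 levels. No ratio past 2-fold changed direction. With T cells chosen by a clonotype alone, the RARα-KO to WT log2 ratio of Tmem176b was -0.59. Thinned to 1000 UMIs, the RARα-TG ratio of Tmem176b was 2.14 and the shares of T cells with 3 or more members were 0.389% for RARα-TG, 0.281% for WT and 0.176% for RARα-KO. Without T cells holding UMIs of other cell types, the RARα-TG ratio of Tmem176a was 1.20. With genotypes by hashtag share, the Tmem176a ratios were -0.75 for RARα-KO and 2.32 for RARα-TG. In the order RARα-TG, WT, RARα-KO, counting 2 or more members gave 18.6%, 3.93% and 2.09%, 4 or more gave 0.892%, 0.275% and 0.174%, and 3 or more without Rora gave 0.892%, 0.413% and 0.174%. Among T cells with Foxp3, an alternative chosen after seeing the data, Tmem176a was at -2.90 for RARα-KO and 0.48 for RARα-TG, and Tmem176b at 0.57 and Il17a at 5.18 for RARα-TG, or 2.35 without clusters 8 and 11. The cause of these shifts was not tested. No paired analysis was possible because each genotype is 1 sample of 1 library, and for the same reason no replicate could be left out. Il22, Il23r, Il1r1 and Blk rest on few cells or UMIs.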
